A study of Arabidopsis thaliana with 9 samples.

Results

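The Aux/IAA and SAUR genes are 2 families of early auxin response genes in *Arabidopsis thaliana*. Their members were taken here as every gene whose symbol in the deposited count matrix is IAA or SAUR followed by a number, with the counts of an assembled transcript entry of the same gene identifier added. The rule gave 28 Aux/IAA and 25 SAUR genes, 53 in all, of 32830 genes. An assembled entry was added for *IAA8*, *IAA9* and *IAA13*. RefSeq lists 54 further SAUR genes and *IAA3* that the matrix does not name in this way. They are not members and serve below only to set the SAUR members beside the rest of their family.

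Whole seeds were imbibed for 4 days at 4 degrees in the dark and then kept for 24 h in the dark before RNA extraction. There were 3 groups of 3 biological replicates: the wild-type accession Ara-1 without KAR2, the *AtKAI2* overexpression line AtKAI2OE without KAR2, and AtKAI2OE on 0.5 µM KAR2. KAR2 is a karrikin, a butenolide of the kind found in smoke, and KAI2 is the alpha/beta-hydrolase receptor through which karrikins act. The labels give AtKAI2OE in the accession Col-0 and the methods of the study give the transgene behind the 35S promoter in the *htl-3* mutant, so that the accession, the mutant background and the transgene cannot be told apart between Ara-1 and AtKAI2OE. The overexpressed gene itself, *KAI2*, was at 8.51 ± 1.09 CPM in Ara-1, at 158 ± 50.7 CPM in AtKAI2OE and at 585 ± 18.2 CPM in AtKAI2OE with KAR2 (SD, n = 3). *KAI2* was thus lower in each Ara-1 library than in any AtKAI2OE library.

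Levels are given in CPM, the count of a gene relative to the total count of its library, with totals scaled by TMM over the 9 libraries, and differences as log2 fold changes with their standard error (SE) from edgeR's quasi-likelihood test on the counts of the 6 libraries of each comparison. A gene passed the test when its p-value, adjusted by Benjamini and Hochberg over all genes tested, was under 0.05. Gene counts per library ran from 17479888 to 33306518. Entries that name no gene held 13.4% to 35.1% of all counts, and the highest share was that of Ara-1 replicate 1. Markers of seed storage tissue, 9 genes of cruciferins, napins and oleosins, summed to between 124522 and 164159 CPM in untreated AtKAI2OE, between 14782 and 15995 CPM with KAR2 and between 359 and 574 CPM in Ara-1, and all 9 were lower with KAR2 and lower in Ara-1. Of 3 endosperm markers, *EXPA2* rose with KAR2 (4.62, SE 0.42), *EPR1* fell (-1.44, SE 0.34) and *MAN7* did not pass. Of the seed coat markers, *BAN* and *TT10* had 0 counts in all libraries and *TT12* a count in 1 library only (0.0969 CPM). In bulk seeds, fewer cells of a type and less RNA per cell cannot be told apart.

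Auxin is perceived by the F-box proteins TIR1 and AFB, for which the Aux/IAA proteins are co-receptors and substrates. While an Aux/IAA protein is present it holds ARF transcription factors at their target genes in a repressed state, together with the corepressor TOPLESS. Auxin joins the F-box protein to a short stretch of the Aux/IAA protein, the degron, and the Aux/IAA protein is degraded. Many Aux/IAA and SAUR genes are themselves targets of ARFs and are transcribed within minutes of auxin. SAUR proteins of several subgroups inhibit PP2C.D phosphatases and so keep the plasma membrane proton pumps active, which acidifies the cell wall and lets the cell expand.

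The degron contains the residues glycine, tryptophan, proline and proline, followed in most family members by valine. Coding sequences of the RefSeq annotation of TAIR10.1 were searched in frame for any bases that encode these residues in this order, with the valine (the complete pattern) or without it (the core). The complete pattern was found in 16 of 28 members, the core alone in 6 (*IAA8*, *IAA10*, *IAA11*, *IAA12*, *IAA13* and *IAA27*) and neither in 6 (*IAA20*, *IAA30*, *IAA31*, *IAA32*, *IAA33* and *IAA34*). Stretches of 30 bases are shown for the 3 members with the greatest rise with KAR2 among those past the test (*IAA7*, *IAA19* and *IAA16*) and for 3 members with the core alone, of which *IAA10* and *IAA11* fell. Capitals mark the match.
IAA7: gtggtgGGATGGCCACCTGTGaggaactac
IAA19: gtggtgGGGTGGCCACCGGTTtgttcttac
IAA16: gttgtgGGATGGCCACCGGTAcgatctttc
IAA8: gttgttGGTTGGCCTCCAatcagatcatac
IAA10: gctgtaGGTTGGCCGCCTctacggacttac
IAA11: gttgtgGGATGGCCACCAataaggacttac

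The 250 bases before the annotated start of each gene were searched on either strand for TGTCTC and TGTCGG, which ARFs bind, and for CACGTG, the G-box bound by bHLH and bZIP factors. The G-box reads the same on each strand, and a match was counted also where it overlapped another motif. TGTCTC stood in 9 of 28 Aux/IAA windows (32.1%), 6 of 25 SAUR windows (24%) and 10.9% of those of 27431 protein-coding genes. Over all 79 SAUR genes, with those that RefSeq alone names, it stood in 7 windows (8.86%), below the share of all genes. TGTCGG stood in 6 Aux/IAA windows (21.4%), 2 windows of SAUR members (8%), which is 2.53% of the 79 SAUR genes, and 4.16% of all. CACGTG stood in 4 Aux/IAA windows (14.3%), in 0 windows of SAUR members, in 1 of the 79 SAUR genes (1.27%) and in 6.49% of all. These matches describe the sequence only. The windows are printed for *IAA7* and *IAA19*, which had no count in untreated AtKAI2OE, and for *SAUR50* and *SAUR41*, the SAUR members with the greatest rise and fall with KAR2. The *IAA7* window lies at chr3:8194356-8194605 on the plus strand, that of *IAA19* at chr3:5263751-5264000 on the plus strand, that of *SAUR50* at chr4:16583076-16583325 on the minus strand and that of *SAUR41* at chr1:5645444-5645693 on the minus strand of TAIR10.1. Capitals mark the motifs. *IAA19* held 3 TGTCTC and 1 CACGTG, *IAA7* held 1 CACGTG, and the windows of *SAUR50* and *SAUR41* held none of the 3 motifs.
IAA7 promoter: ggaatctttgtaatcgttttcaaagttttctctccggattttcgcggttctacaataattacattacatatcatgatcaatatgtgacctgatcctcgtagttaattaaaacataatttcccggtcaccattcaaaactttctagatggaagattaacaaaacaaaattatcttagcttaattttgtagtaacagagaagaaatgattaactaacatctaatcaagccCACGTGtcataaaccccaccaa
IAA19 promoter: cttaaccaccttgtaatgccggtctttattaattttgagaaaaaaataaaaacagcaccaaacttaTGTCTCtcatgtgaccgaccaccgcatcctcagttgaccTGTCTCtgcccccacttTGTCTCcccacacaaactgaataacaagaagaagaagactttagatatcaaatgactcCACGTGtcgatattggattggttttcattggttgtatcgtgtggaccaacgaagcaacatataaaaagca
SAUR50 promoter: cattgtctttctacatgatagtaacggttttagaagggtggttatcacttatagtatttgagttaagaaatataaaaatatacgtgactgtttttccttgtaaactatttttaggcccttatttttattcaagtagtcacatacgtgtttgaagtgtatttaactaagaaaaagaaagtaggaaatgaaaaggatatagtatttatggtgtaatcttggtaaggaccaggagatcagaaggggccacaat
SAUR41 promoter: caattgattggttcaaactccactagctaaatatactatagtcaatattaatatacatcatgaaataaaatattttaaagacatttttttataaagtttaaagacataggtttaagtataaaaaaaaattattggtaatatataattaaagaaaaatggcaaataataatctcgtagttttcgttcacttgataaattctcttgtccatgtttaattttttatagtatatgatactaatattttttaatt

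Most of the Aux/IAA transcript came from a few members. Summed over the 28 genes, Aux/IAA transcripts were at 273 ± 21.7 CPM in untreated AtKAI2OE, 367 ± 5.25 CPM with KAR2 and 308 ± 20.2 CPM in Ara-1 (SD, n = 3). The 3 members with the most counts, which were *IAA8* and *IAA9* with *IAA13* in AtKAI2OE and with *IAA26* in Ara-1, made up 82.1%, 77.8% and 67.2% of these sums. Per kilobase of exon, *IAA9* was at 48.5 CPM in untreated AtKAI2OE, *IAA8* at 44.8 CPM and *IAA13* at 12.7 CPM, followed by *IAA12* at 7.78 CPM and *IAA11* at 6.10 CPM. With KAR2, *IAA8* stood at 65.2 CPM per kilobase and *IAA9* at 54.9 CPM, and in Ara-1 *IAA9* stood at 48.0 CPM and *IAA8* at 32.8 CPM. *IAA5*, *IAA6* and *IAA15* had 0 counts in all 9 libraries, and a count of 0 in a group allows up to 3 counts. A further 9 members (*IAA1*, *IAA14*, *IAA17*, *IAA28*, *IAA29*, *IAA31*, *IAA32*, *IAA33* and *IAA34*) had too few counts to be tested for KAR2. *IAA34* had 24 counts in 1 untreated AtKAI2OE library and 0 in the other 8 libraries. It overlaps an annotated gene on the same strand (AT1G15060), so that reads from the overlap cannot be told apart by strand.

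**Figure D1:**
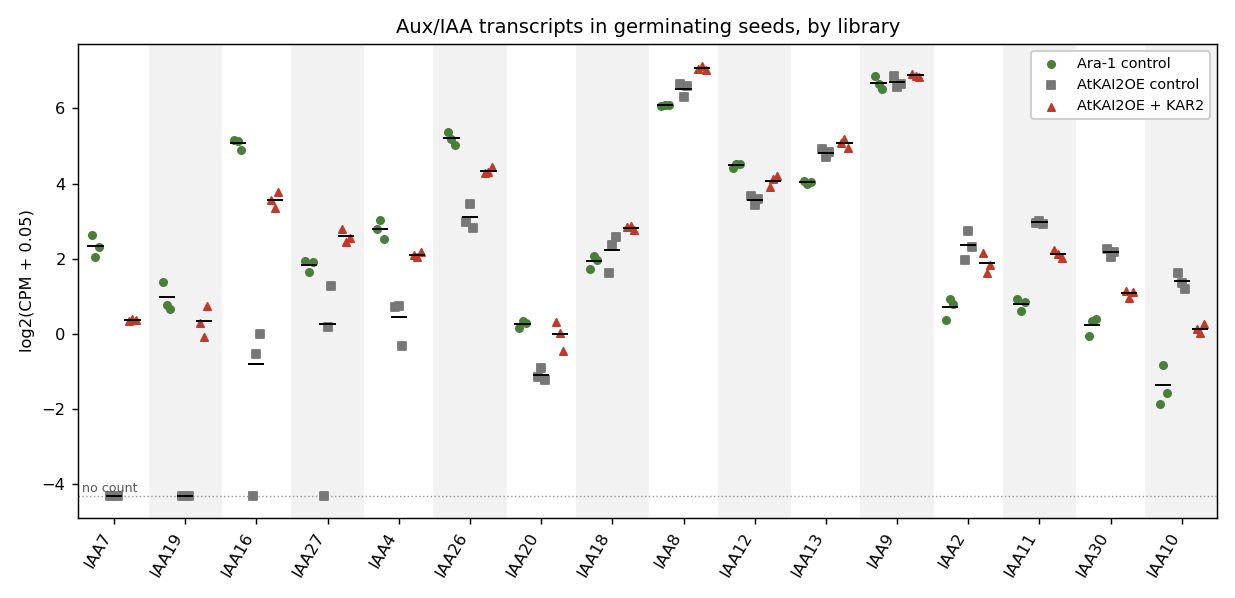
Level of each Aux/IAA member tested for KAR2 in each of the 9 libraries, as log2 of CPM plus 0.05, with members ordered by their log2 fold change with KAR2. Points are replicates, short black lines the group means and the dotted line the value of a library with no count; *IAA7* and *IAA19* lie on that line in all 3 untreated AtKAI2OE libraries.

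The first comparison asks how the 2 families differ between AtKAI2OE seeds with and without KAR2. Of the 16 Aux/IAA members tested, 8 were higher with KAR2 and 3 lower, and 5 did not pass. Of all 17226 genes tested, 53.8% passed, 29.8% higher and 24% lower, so that calls of either direction are common in this comparison. The replicates of the 2 groups did not overlap for 14 of the 16 members, beside 65.2% of all genes. The median log2 fold change of the members tested was 0.54, beside 0.06 over all genes. *IAA7* and *IAA19* had under 10 counts in every untreated library and were tested only because of their counts with KAR2. When counts were scaled by library size alone, the median of all genes moved by 0.40 on the log2 scale and the share of higher calls over all genes from 55.5% to 75.8%, and the Aux/IAA calls were then 12 higher and 2 lower.

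*IAA7* (AT3G23050), known as AXR2 from dominant mutants with resistance to auxin, had 0 counts in each of the 3 untreated AtKAI2OE libraries. With KAR2 it had 38, 30 and 37 counts, or 1.23, 1.26 and 1.25 CPM, and in Ara-1 6.15, 4.07 and 4.87 CPM. The groups were fully apart. Against a floor of 3 counts over the untreated group, *IAA7* was at least 25.5-fold higher with KAR2 (adjusted p = 0.000929 in edgeR's test). This bound covers counting error alone and not the spread between replicates. The gene was tested only because of its counts with KAR2, so that the p-value is no separate support.

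*IAA19* (AT3G15540), known as MSG2 for its role in hypocotyl tropisms, likewise had 0 counts in each untreated library. It had 36, 21 and 48 counts with KAR2, or 1.16, 0.885 and 1.62 CPM, and 2.54, 1.66 and 1.53 CPM in Ara-1. It was at least 25.5-fold higher with KAR2 (adjusted p = 0.00158 in edgeR's test). The limits given for *IAA7* on the bound and the p-value hold here too. The KAR2 and Ara-1 libraries overlapped in this gene.

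*IAA16* (AT3G04730) is a close relative of *IAA7* whose gain-of-function mutant responds less to auxin and abscisic acid. It was the Aux/IAA member with the greatest fitted change among those with counts in each group. It stood at 0, 0.642 and 0.937 CPM in untreated AtKAI2OE and at 11.7, 10.1 and 13.7 CPM with KAR2. It rose by 4.37 on the log2 scale (SE 0.62, adjusted p = 0.00102 in edgeR's test). All 3 Ara-1 libraries were higher still, at 35.4, 35.3 and 29.8 CPM.

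*IAA4* (AT5G43700) went from 1.59, 1.61 and 0.750 CPM to 4.23, 4.05 and 4.43 CPM, a log2 fold change of 1.65 (SE 0.35, adjusted p = 0.00611 in edgeR's test). *IAA26* (AT3G16500), known as a phytochrome-associated protein, went from 7.87, 11 and 6.94 CPM to 19.5, 19.6 and 21.6 CPM (log2 fold change 1.20, SE 0.20, adjusted p = 0.00223 in edgeR's test). Neither gene had a KAR2 library within the untreated range. *IAA27* (AT4G29080), a second phytochrome-associated protein of the family, was at 0, 1.08 and 2.34 CPM without and at 6.88, 5.35 and 5.82 CPM with KAR2. Its log2 fold change of 2.35 (SE 0.81) was close to the threshold, with an adjusted p of 0.0434 in edgeR's test, and did not pass when any 1 KAR2 replicate or control replicate 2 was left out (adjusted p of 0.0939 to 0.13).

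*IAA8* and *IAA12* rose by less. *IAA8* (AT2G22670) went from 92.2 ± 12.3 to 134 ± 5.95 CPM (SD, n = 3), a log2 fold change of 0.52 (SE 0.14, adjusted p = 0.0169 in edgeR's test). *IAA12* (AT1G04550), known as BODENLOS and as the partner of the ARF MONOPTEROS in the formation of the embryonic root, went from 11.7 ± 0.964 to 16.8 ± 1.63 CPM, a log2 fold change of 0.50 (SE 0.14, adjusted p = 0.0234 in edgeR's test). *IAA8* lost its call without any 1 KAR2 replicate (adjusted p of 0.0563 to 0.0701), and *IAA12* without KAR2 replicate 2 or 3 or without control replicate 3 (adjusted p of 0.056 to 0.103). Without KAR2 replicate 2 or without KAR2 replicate 3 the number of Aux/IAA members higher with KAR2 was 5.

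*IAA9* (AT5G65670) did not pass, with 104 ± 11.2 CPM without and 117 ± 2.81 CPM with KAR2 (log2 fold change 0.15, SE 0.13, adjusted p = 0.381 in edgeR's test). *IAA13* (AT2G33310), the closest relative of *IAA12*, did not pass either, at 28.2 ± 2.12 and 33.6 ± 2.87 CPM. The other members that did not pass were *IAA18* (0.56, SE 0.23), *IAA2* (-0.51, SE 0.26) and *IAA20*, which lies at the threshold with a log2 fold change of 1.14 (SE 0.41) and an adjusted p of 0.050 in edgeR's test. *IAA2* passed as lower without control replicate 1 (-0.68, adjusted p = 0.0457). *IAA9*, *IAA13*, *IAA18* and *IAA20* passed as higher when counts were scaled by library size alone. *IAA20* also passed with all 9 libraries in 1 edgeR fit (adjusted p = 0.0210) and in limma with either pseudocount (adjusted p of 0.0465 and 0.0382). *IAA18* also passed in edgeR's test of genes with at least 10 counts in every library (adjusted p = 0.0399).

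Of the 3 members that fell, *IAA10* (AT1G04100), known from the suspensor of the embryo, and *IAA11* (AT4G28640) are close relatives. *IAA10* went from 3.04, 2.49 and 2.25 CPM to 1.03, 0.969 and 1.15 CPM (log2 fold change -1.32, SE 0.29, adjusted p = 0.00717 in edgeR's test). *IAA11* went from 7.74, 7.91 and 7.59 CPM to 4.65, 4.34 and 3.99 CPM (log2 fold change -0.87, SE 0.15, adjusted p = 0.00284 in edgeR's test), and at -0.47 did not pass when scaled by library size alone (adjusted p = 0.0511). *IAA30* (AT3G62100), which lacks the degron residues and is known from embryogenic tissue, went from 4.76, 4.10 and 4.50 CPM to 2.16, 1.90 and 2.13 CPM (log2 fold change -1.13, SE 0.21, adjusted p = 0.00352 in edgeR's test). In all 3 genes each KAR2 library lay below each untreated library. *IAA9*, *IAA10*, *IAA11*, *IAA13* and *IAA27* overlap an annotated gene on the other strand, and reads of the pair cannot be told apart if counting did not use strand. The 9 storage markers moved the same way as these 3 genes, with a median log2 fold change of -3.01, and their part in the result was not tested.

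By the degron residues, 5 of the 8 tested members with the complete pattern were higher with KAR2 and 0 lower. Among the 6 tested members with the core alone 3 were higher and 2 lower, and of the 2 tested members without either, *IAA20* did not pass and *IAA30* fell. The median log2 fold changes were 1.43, 0.36 and 0.0037. The class with the complete pattern includes *IAA7* and *IAA19*, which were tested only because of their counts with KAR2. Without them 3 of 6 were higher, as in the class with the core alone, with a median of 0.88. These numbers still hold *IAA16* (complete pattern), with 0, 16 and 20 untreated counts, and *IAA27* (core alone), with 0, 27 and 50. Both also needed their counts with KAR2 to pass the filter. The 3 higher members with the core alone, *IAA8*, *IAA12* and *IAA27*, each lost the call when certain single replicates were left out. Over all genes tested, 29.8% were higher and 24% lower. These are descriptions of few genes, and the difference between the classes was not tested.

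Few SAUR members had enough counts to be tested. Of 25 members, 11 had 0 counts in all 9 libraries and 7 more had too few to be tested, which leaves 7. Summed over all 25, SAUR transcripts were at 53.8 ± 9.13 CPM in untreated AtKAI2OE, 50.7 ± 3.72 CPM with KAR2 and 55.1 ± 8.0 CPM in Ara-1 (SD, n = 3). The sums lay close together but came from different members: *SAUR36* held 49.4% of the sum in untreated AtKAI2OE, and *SAUR78* held 66.4% with KAR2 and 78.7% in Ara-1. Per kilobase of exon, *SAUR36* went from 22.6 to 4.21 CPM with KAR2, and *SAUR78* from 5.31 to 28.0 CPM.

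**Figure D2:**
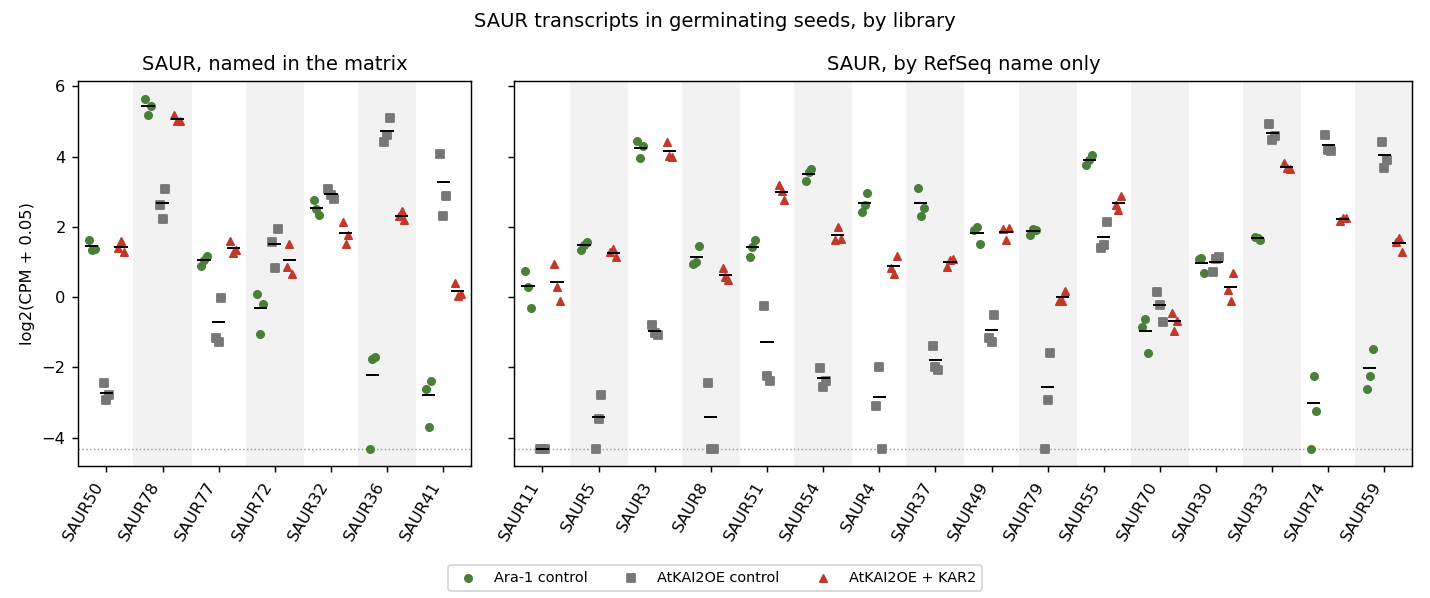
Level of each tested SAUR gene in each of the 9 libraries, as log2 of CPM plus 0.05, on the left the 7 members and on the right 16 further SAUR genes that RefSeq names. Points are replicates, short black lines the group means and the dotted line the value of a library with no count; in *SAUR36* and *SAUR41* the untreated AtKAI2OE libraries lie above all KAR2 libraries and those above all Ara-1 libraries.

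With KAR2, 3 of the 7 SAUR members tested were higher, 3 lower and 1 did not pass, beside 53.8% of all genes called, and the replicates of 6 did not overlap, beside 65.2% of all genes. The median log2 fold change was -0.49. Of the 7, *SAUR50* had under 10 counts in every untreated library and was tested only because of its counts with KAR2. *SAUR77* had 6, 9 and 20 untreated counts and also needed its counts with KAR2 to pass the filter.

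*SAUR50* (AT4G34760), a gene that light induces in cotyledons, had 2 counts in each untreated library and 80, 70 and 71 counts with KAR2. It went from 0.132, 0.0803 and 0.0937 CPM to 2.58, 2.95 and 2.40 CPM (log2 fold change 4.65, SE 0.39, adjusted p = 0.000116 in edgeR's test). Ara-1 had 3.05, 2.47 and 2.52 CPM, within and just above the range with KAR2.

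*SAUR78* (AT1G72430) and *SAUR77* (AT1G17345) are relatives whose group is known to interact with ethylene receptors. *SAUR78* went from 6.15, 4.62 and 8.44 CPM to 36.6, 32.5 and 32 CPM (log2 fold change 2.38, SE 0.21, adjusted p = 0.000135 in edgeR's test). *SAUR77* went from 0.397, 0.361 and 0.937 CPM to 2.97, 2.36 and 2.47 CPM (log2 fold change 2.18, SE 0.41, adjusted p = 0.00392 in edgeR's test). In both, every KAR2 library was above every untreated library.

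*SAUR36* (AT2G45210), known from leaf senescence, fell from 21.2, 24.5 and 33.9 CPM to 4.94, 5.39 and 4.53 CPM (log2 fold change -2.44, SE 0.18, adjusted p = 7.35e-05 in edgeR's test). In Ara-1 it had 0, 9 and 9 counts, or at most 0.255 CPM. *SAUR41* (AT1G16510), known to promote cell expansion, fell from 16.7, 4.90 and 7.31 CPM to 1.26, 0.969 and 1.01 CPM (log2 fold change -3.18, SE 0.51, adjusted p = 0.00177 in edgeR's test), and was at 0.113, 0.0272 and 0.142 CPM in Ara-1. These 2 genes had the same order of groups as the storage markers, highest in untreated AtKAI2OE and lowest in Ara-1. The group means of *SAUR72*, *IAA2*, *IAA10*, *IAA11* and *IAA30* had this order too. The part of the markers in this order was not tested.

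*SAUR32* (AT2G46690), known from the apical hook, fell from 8.47, 7.43 and 6.84 CPM to 4.36, 2.78 and 3.38 CPM (log2 fold change -1.14, SE 0.23, adjusted p = 0.00472 in edgeR's test). *SAUR72* did not pass, at 2.81 ± 1.04 CPM without and 2.03 ± 0.666 CPM with KAR2 (log2 fold change -0.49, SE 0.38). Among the 7 tested, *SAUR32* is the only SAUR member whose level with KAR2 was below that of both other groups.

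The SAUR genes that the matrix does not name add to this. Of 54 such genes 16 were tested, 11 were higher with KAR2, 3 lower and 2 did not pass, and 16 of the 54 had 0 counts throughout. Of all genes tested, 29.8% were higher and 24% lower. Of the 11 higher genes, 7 (*SAUR4*, *SAUR5*, *SAUR8*, *SAUR11*, *SAUR37*, *SAUR54* and *SAUR79*) had under 10 counts in every untreated library, so that they were tested only because of their counts with KAR2, and among the other 9 tested genes 4 were higher and 3 lower. *SAUR50* lies on chromosome 4 between 16577180 and 16599568 (TAIR10.1) in a row of 7 SAUR genes with *SAUR49* and *SAUR1* to *SAUR5*. These 7 genes together had 72 counts in untreated AtKAI2OE, 2421 with KAR2 and 3069 in Ara-1. *SAUR3* had the most, going from 0.529, 0.442 and 0.422 CPM to 21.3, 16.2 and 15.9 CPM (log2 fold change 5.24, SE 0.23, adjusted p = 2.41e-05 in edgeR's test). *SAUR4* (4.16, SE 0.76) and *SAUR49* (2.88, SE 0.33) also rose, *SAUR5* went from 3 to 198 counts, and *SAUR1* and *SAUR2* went from 0 to 13 and 17 counts and were not tested. Coding sequences of the row were 44.1% to 63.8% identical between pairs, and all of their exonic windows of 74 bases, the length of a read that lost only its last base in trimming, occurred once in the genome. Shorter reads were also kept by the study, and windows of their length were not searched.

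The other rows of SAUR genes had few or no counts. *SAUR19* to *SAUR24* on chromosome 5, known from work on cell expansion, had 0 counts in untreated AtKAI2OE, 6 with KAR2 and 18 in Ara-1 over the 6 genes. *SAUR61* to *SAUR68* on chromosome 1 had 0, 1 and 10 counts over 8 genes. The study removed reads that map to several places. In these rows, 97% to 100% and 72.2% to 100% of each gene's exonic windows of 74 bases had no exact second copy in the genome. *SAUR15* and *SAUR28*, in rows on chromosomes 4 and 3, had 0 counts. Of the SAUR genes outside these rows, *SAUR51* (4.54, SE 0.58) and *SAUR54* (4.43, SE 0.36) rose with KAR2, and *SAUR59* (-2.56, SE 0.25), *SAUR74* (-2.15, SE 0.19) and *SAUR33* (-0.99, SE 0.17) fell on the log2 scale.

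**Figure D3:**
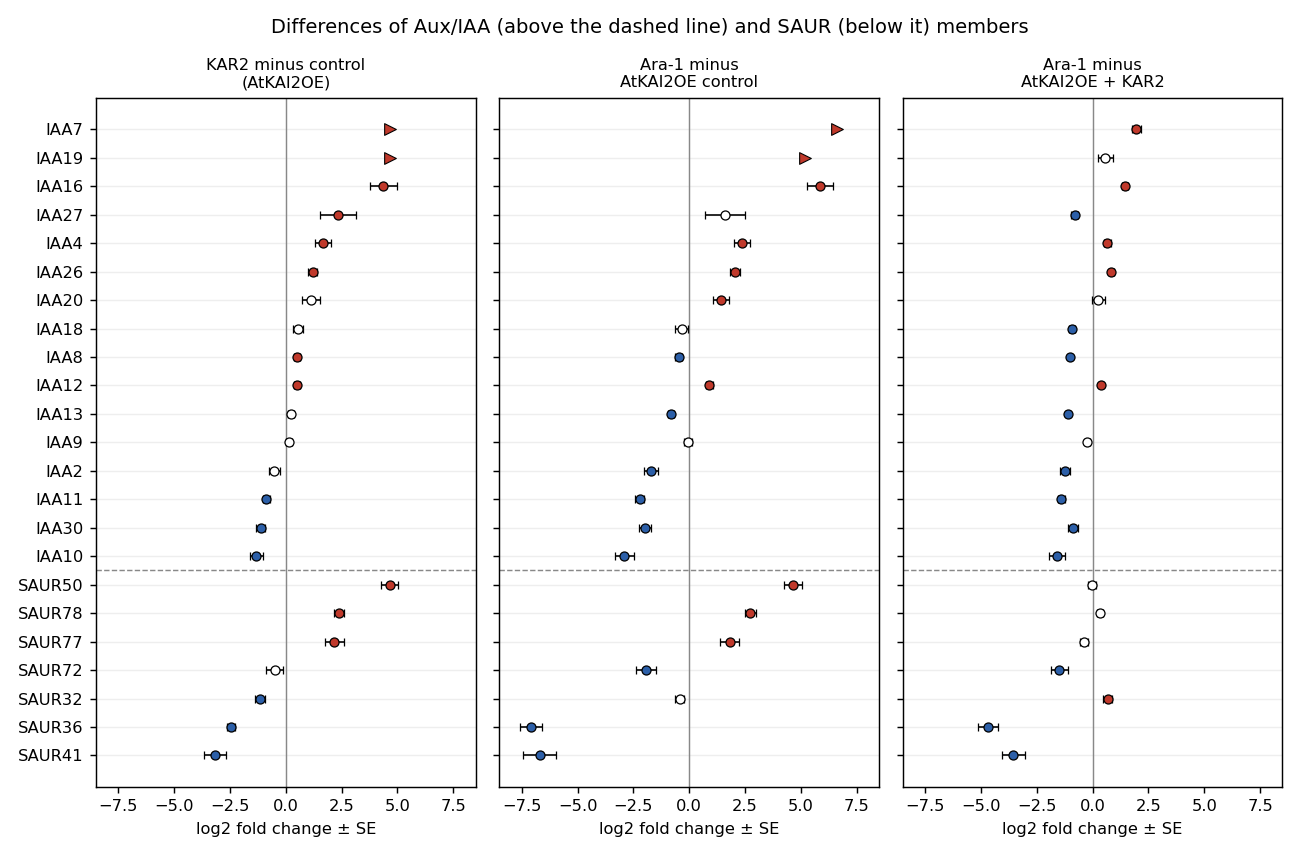
Log2 fold change with its standard error of the 16 Aux/IAA and 7 SAUR members tested for KAR2, in the 3 comparisons. Filled red points passed as higher, filled blue points as lower and open points did not pass; triangles are lower bounds against a floor of 3 counts, as for *IAA7* and *IAA19* in the first and second panel.

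The second comparison sets wild-type Ara-1 against untreated AtKAI2OE. It shares the untreated AtKAI2OE libraries with the first, so that a chance deviation of these would move both the same way. Of 16 Aux/IAA members tested, 7 were higher in Ara-1, 6 lower and 3 did not pass, beside 69.6% of all 17905 genes called, 37.9% higher and 31.8% lower. The replicates did not overlap for 14 of the 16 members and for 75.2% of all genes. Ara-1 had *IAA7* at least 98.1-fold and *IAA19* at least 36.4-fold above untreated AtKAI2OE. Both had under 10 counts in every untreated AtKAI2OE library and were tested here only because of their counts in Ara-1. *IAA16* was higher by 5.86 (SE 0.58), *IAA4* by 2.35 (SE 0.36), *IAA26* by 2.06 (SE 0.22), *IAA20* by 1.42 (SE 0.35) and *IAA12* by 0.90 (SE 0.15) on the log2 scale. The lower members were *IAA10* (-2.90, SE 0.42), *IAA11* (-2.22, SE 0.22), *IAA30* (-1.98, SE 0.28), *IAA2* (-1.70, SE 0.31), *IAA13* (-0.82, SE 0.14) and *IAA8* (-0.48, SE 0.15). *IAA8* was not called when any 1 Ara-1 replicate was left out (adjusted p of 0.0666 to 0.0785), nor with scaling by library size alone (-0.11). *IAA18* passed as lower only without control replicate 1 (-0.61, adjusted p = 0.0436). *IAA2*, known as an auxin-induced reporter gene in roots, stood at 1.59 ± 0.311 CPM in Ara-1 and 5.10 ± 1.39 CPM in untreated AtKAI2OE (SD, n = 3).

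Of the 7 SAUR members, 3 were higher in Ara-1 than in untreated AtKAI2OE (*SAUR50* by 4.66, SE 0.40; *SAUR78* by 2.74, SE 0.24; *SAUR77* by 1.81, SE 0.43). *SAUR36* (-7.08, SE 0.50), *SAUR41* (-6.70, SE 0.75) and *SAUR72* (-1.93, SE 0.45) were lower, and *SAUR32* did not pass (-0.43, SE 0.21). The replicates of all 7 members did not overlap, beside 75.2% of all genes, and 69.6% of all genes were called. *SAUR36* and *SAUR41* had under 10 counts in every Ara-1 library and *SAUR50* in every untreated AtKAI2OE library.

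The third comparison sets Ara-1 against AtKAI2OE with KAR2. Of 18 Aux/IAA members tested, 5 were higher in Ara-1, 8 lower and 5 did not pass, beside 62.4% of 17978 genes called, 30.1% higher and 32.2% lower. The replicates did not overlap for 13 of the 18 members and for 69.7% of all genes. *IAA7* (1.96, SE 0.21), *IAA16* (1.46, SE 0.13), *IAA26* (0.83, SE 0.11), *IAA4* (0.66, SE 0.16) and *IAA12* (0.38, SE 0.10) were higher in Ara-1. *IAA10* (-1.59, SE 0.37), *IAA11* (-1.40, SE 0.17), *IAA2* (-1.22, SE 0.22), *IAA13* (-1.08, SE 0.09), *IAA8* (-1.03, SE 0.07), *IAA18* (-0.93, SE 0.13), *IAA30* (-0.88, SE 0.22) and *IAA27* (-0.81, SE 0.16) were lower. *IAA1*, *IAA9*, *IAA19*, *IAA20* and *IAA33* did not pass, and *IAA9* passed as lower without Ara-1 replicate 1 (-0.32, adjusted p = 0.00475). The mean with KAR2 lay between those of the other groups for 11 of the 16 Aux/IAA members tested for KAR2, above both for 5 (*IAA8*, *IAA9*, *IAA13*, *IAA18* and *IAA27*) and below both for 0. This order was not counted over all genes, so it cannot be called particular to the family.

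Of 7 SAUR members tested, 1 was higher in Ara-1, 3 were lower and 3 did not pass, beside 62.4% of all genes called. The replicates did not overlap for 5 of the 7 members and for 69.7% of all genes. *SAUR32* was higher in Ara-1 than in AtKAI2OE with KAR2 (0.67, SE 0.20), but its call was lost without KAR2 replicate 2 or 3 (adjusted p of 0.0687 and 0.0662), which leaves 0 SAUR members higher. *SAUR36* (-4.69, SE 0.46), *SAUR41* (-3.56, SE 0.51) and *SAUR72* (-1.49, SE 0.39) were lower. Of these, *SAUR36* and *SAUR41* had under 10 counts in every Ara-1 library and were tested only because of their counts with KAR2. *SAUR50* (-0.02, SE 0.18), *SAUR77* (-0.40, SE 0.19) and *SAUR78* (0.32, SE 0.13) did not pass. The adjusted p of *SAUR78* was 0.0569 in edgeR's test and 0.00806 without Ara-1 replicate 2 (0.47), and it was under the threshold in 8 alternative settings in all.

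The genes around the 2 families in the auxin pathway were taken from lists by role, and only those whose name matches the reference are counted. Among auxin transport genes, 11 of 12 tested were higher with KAR2, 0 were lower and 1 did not pass, beside 29.8% of all genes higher and 24% lower. They include the influx carrier *AUX1* (3.75, SE 0.18) and the efflux carriers *PIN4* (4.87, SE 0.88), *PIN2* (3.99, SE 0.32) and *PIN3* (3.42, SE 0.14), of which *PIN4* had under 10 counts in every untreated library. The list has 16 genes, and their summed level went from 95.4 ± 26.1 to 326 ± 10.2 CPM, beside 668 ± 28.7 CPM in Ara-1 (SD, n = 3).

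Among genes of auxin synthesis, 3 of 8 tested were higher with KAR2 and 2 lower, beside 29.8% and 24% of all genes. *TAA1*, the aminotransferase of the main route, rose by 3.12 (SE 0.28) and its relative *TAR2* by 0.94 (SE 0.11), whereas *AMI1*, an amidase, changed by -1.33 (SE 0.16) on the log2 scale. Among genes of conjugation and release, 6 of 9 tested were higher and 2 lower, beside the same shares of all genes. The genes of the conjugating enzymes *GH3.17* (4.74, SE 0.89) and *GH3.5* (2.66, SE 0.29) rose, and *GH3.2* (-2.10, SE 0.14) fell. *ILR1*, which releases auxin from conjugates, also fell (-1.45, SE 0.12). Of the higher genes in these lists, *YUC4* and *GH3.17* had under 10 counts in every untreated library and were tested only because of their counts with KAR2.

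All 6 auxin receptor genes rose with KAR2, *TIR1* by 0.69 (SE 0.18) and *AFB5* by 1.33 (SE 0.16) on the log2 scale, while *AFB1* to *AFB4* had log2 fold changes of 0.41 to 0.69. *CUL1*, a subunit of their ligase, fell (-0.45, SE 0.13), and the corepressor *TPL* and its 4 relatives did not pass. Of 15 ARF genes tested, 3 were higher (*ARF5* by 1.41, SE 0.26; *ARF3* by 1.03, SE 0.13; *ARF6* by 0.81, SE 0.22), 2 lower (among them *ARF1*, -0.78, SE 0.12) and 10 did not pass. Of 7 tested genes of proton pumps and the TMK kinases that act on them, 3 were higher, *TMK1* (4.12, SE 0.32), *AHA2* (3.77, SE 0.33) and *AHA3* (1.22, SE 0.15), and 4 did not pass. The calls of these genes, as those of the members, are to be read beside the 53.8% of all genes that passed, 29.8% higher and 24% lower.

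**Figure D4:**
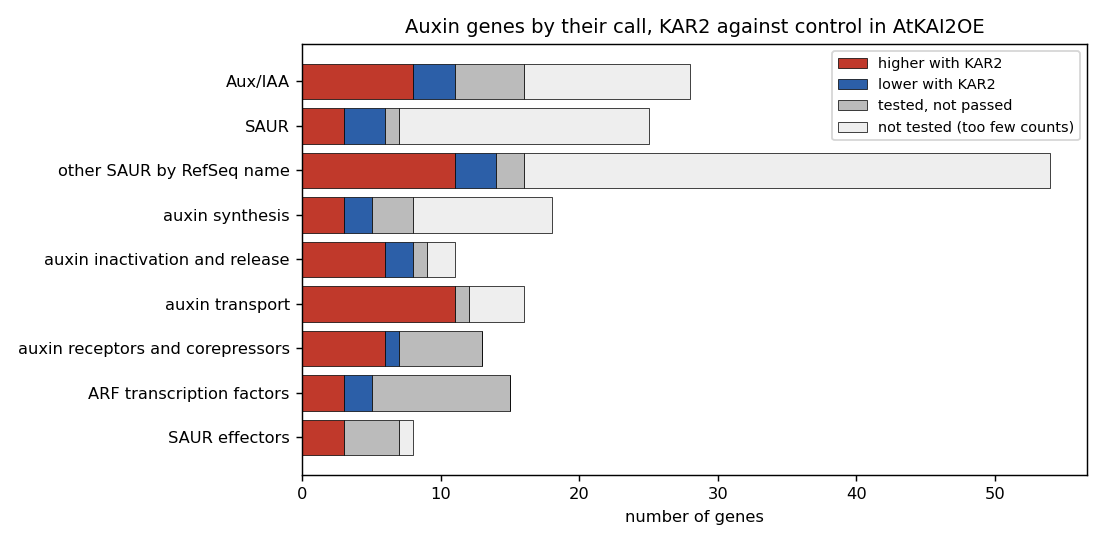
Number of genes of each auxin list by their call with KAR2 against control in AtKAI2OE. Bars start at 0 and add up to the genes of the list; the transport list has 11 genes higher and 0 lower, the 25 SAUR members have 3 higher and 3 lower, and untested genes are the largest part of both SAUR bars.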

How the data were processed

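RNA was from whole seeds, in 3 groups of 3 biological replicates. Single-end reads were aligned to TAIR10 (HISAT2 2.1.0), reads mapping to several places were removed (SAMtools 1.10), and the authors deposited whole-number counts per gene (StringTie 2.1.3, Araport11) and a normalized signal per library, the count over a DESeq2 1.18.1 size factor. Ara-1 reads were thus aligned to the Col-0 reference. The kit was directional, and strand use in counting was not given in the sources used here. 7 Aux/IAA and 2 SAUR members overlap an annotated gene on the other strand, and 1 Aux/IAA member (*IAA34*) overlaps 1 on the same strand.

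Counts were summed per gene identifier, and the 1105 of 37054 entries without one, 13.4% to 35.1% of counts, were left out. Genes were filtered by filterByExpr (minimum count 10, minimum total 15), scaled by TMM and tested by edgeR 4.0.16 in R 4.3.3 on the 6 libraries of each comparison, after a check on simulated data. SEs were derived from the F statistic. Folds against a group at 0 are bounds computed with a floor of 3 counts for that group, which covers counting error alone. Alternatives were library-size and RLE scaling, DESeq2 1.42.0, other filters, 1 fit of all 9 libraries, a replicate block, the gene's own entry alone, limma 3.58.1 on log2 of the normalized signal plus 1 or plus 10, and leaving out each replicate. Sequences are from RefSeq TAIR10.1. AT1G29510 is *SAUR67* in the matrix and *SAUR68* in RefSeq.

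All tested Aux/IAA members are named, SAUR members called in a comparison (up to 8 each way), and up to 4 genes called with KAR2 per list. Other SAUR genes and members beyond this were named after their values were seen. Of 107 list genes, the 96 whose name the reference gives were used. The members and lists were chosen with earlier results of these data known.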

Additional observations from a re-analysis of the deposited data

How the results depend on the processing

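Of 53 calls of single members over the 3 comparisons, 44 kept their direction and stayed past the threshold under every alternative that gave a value, and 0 reversed. The other 9 were those of *IAA8*, *IAA11*, *IAA12* and *IAA27* with KAR2, of *IAA8* and *IAA20* in Ara-1 against untreated AtKAI2OE, and of *IAA4*, *IAA27* and *SAUR32* in Ara-1 against KAR2. A filter of at least 10 counts in every library removes by its own construction each member with a lower count in any library of the comparison. With it, 5 Aux/IAA and 1 SAUR members were higher with KAR2, 3 Aux/IAA members were higher in Ara-1 than in untreated AtKAI2OE with 1 SAUR member higher and 1 lower, and in Ara-1 against KAR2 2 SAUR members were higher and 1 lower. Library size, RLE, DESeq2, the replicate block and limma with either pseudocount each gave 2 SAUR members higher in Ara-1 than with KAR2 in place of 1.

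For KAR2 against control and for Ara-1 against KAR2, the same replicate number did not mark libraries that deviate together (correlations of -0.09 to -0.007). In Ara-1 against untreated AtKAI2OE these correlations were 0.05, 0.27 and 0.03, and those of different replicate numbers -0.13 to 0.08. Whether the numbers mark pairs there was not tested. With the replicate block, 5 Aux/IAA members were higher with KAR2 in place of 8. Leaving out 1 replicate at a time gave 5 to 9 Aux/IAA members higher and 3 to 4 lower with KAR2, and 3 SAUR members each way. For Ara-1 against untreated AtKAI2OE it gave 7 to 8 and 5 to 7 Aux/IAA members and 3 SAUR members each way, and for Ara-1 against KAR2 5 and 8 to 9 Aux/IAA members, 0 to 2 SAUR members higher and 3 lower.

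Signs turned only for members that had not passed. In Ara-1 against untreated AtKAI2OE, *IAA9* (-0.05) was at 0.32 with library size, at 0.025 with at least 10 counts in every library and at -0.14 to 0.015 without 1 replicate, and *IAA18* (-0.34) was at 0.014 with library size. In Ara-1 against KAR2, *SAUR50* (-0.02) was at 0.0050 with RLE, at 0.012 with all 9 libraries, at 0.12 and 0.10 with limma and at -0.10 to 0.064 without 1 replicate, and *IAA33* (0.23) was at -0.11 to 0.46 without 1 replicate. The causes were not tested. Members with few counts limit the depth: a count of 0 in a group allows up to 3 counts, and the members not tested cannot be called silent or unchanged. Replicates are biological per the labels.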
